A study of Mus musculus with 9 samples.

Results

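De novo lipogenesis is the making of fatty acids from carbohydrate carbon, and 10 of its enzymes and regulators were followed here in mouse adipose tissue. They are Slc25a1, Acly, Acss2, Acaca, Fasn, Elovl6, Me1, Thrsp, Srebf1 and Mlxipl, and they were taken from the count table by gene name. All 10 were found among the 3958 genes of the count table used here. The RNA was that of fat from male C57BL/6J mice, taken at day 21, in 3 groups of 3 libraries, and the fat depot is not named in the labels. The design text speaks of a normal diet, a high-fat diet, and a high-fat diet with electroacupuncture, in which needles in the skin carry a weak current. The group called EA here is the one whose treatment label is EA, which is titled APX 5, 7 and 8 by the submitters. The groups CPX (4, 6 and 8) and MPX (2, 5 and 7) carry no treatment label. Which of them had which diet is not stated in the labels, so no difference below is given as an effect of diet. Nothing in the labels says that the libraries of a group came from separate mice, so p-values measure only the spread between these libraries, which may be technical.

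As background, citrate made in mitochondria is carried to the cytosol by the citrate carrier, Slc25a1, and split by ATP citrate lyase, Acly, into acetyl-CoA and oxaloacetate. Acyl-CoA synthetase short-chain member Acss2 makes acetyl-CoA from acetate. Acetyl-CoA carboxylase, Acaca, turns acetyl-CoA into malonyl-CoA, fatty acid synthase, Fasn, builds palmitate from it, and Elovl6 lengthens palmitate to stearate. Malic enzyme, Me1, supplies NADPH for these steps, and Thrsp (Spot 14) is a small protein that accompanies lipogenic enzymes. Srebf1 encodes SREBP-1, a factor that answers to insulin and sterols, and Mlxipl encodes ChREBP, a factor that answers to glucose, and both raise transcription of lipogenic enzymes. In fat of well-fed rodents the pathway is active, and it is known to be low under fasting or fat-rich food.

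All 10 genes are annotated as protein coding, at mm10 positions that the table and GENCODE M21 give alike. Acly, Acaca, Fasn and Srebf1 are on chromosome 11, and the other six lie on 6 chromosomes. Elovl6 spans chr3:129532355-129638495 on the plus strand, Acly spans chr11:100476353-100528000 on the minus strand, and Fasn spans chr11:120805846-120824547 on the minus strand. Slc25a1 spans chr16:17925223-17928219 on the minus strand, and Mlxipl spans chr5:135089890-135138382 on the plus strand. RefSeq promoter windows (build GRCm38.p6, 250 bases before to 50 bases after a start) were matched by symbol for 10 of 10 genes, giving 14 windows.

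The bases before the start are shown for 5 genes: Elovl6 and Acly, whose CPX libraries all lay above every MPX library, Fasn, the gene of the 10 with the most counts, and Slc25a1 and Mlxipl, the only members with an E-box in a window. Capitals mark the NF-Y box (CCAAT, or ATTGG on the other strand) and the E-box CACGTG. Each sequence runs 5′ to 3′ on the strand of its gene and stops where the gene begins in the count table. The stretches are chr3:129532136-129532354 (plus strand) for Elovl6, chr11:100528001-100528250 (minus strand) for Acly, chr11:120824548-120824797 (minus strand) for Fasn, chr16:17928220-17928469 (minus strand) for Slc25a1 and chr5:135089640-135089889 (plus strand) for Mlxipl.
Elovl6: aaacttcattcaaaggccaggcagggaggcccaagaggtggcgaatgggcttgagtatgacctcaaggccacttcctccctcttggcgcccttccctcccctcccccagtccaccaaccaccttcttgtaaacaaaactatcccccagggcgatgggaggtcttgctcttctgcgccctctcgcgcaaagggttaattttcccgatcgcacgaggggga
Acly: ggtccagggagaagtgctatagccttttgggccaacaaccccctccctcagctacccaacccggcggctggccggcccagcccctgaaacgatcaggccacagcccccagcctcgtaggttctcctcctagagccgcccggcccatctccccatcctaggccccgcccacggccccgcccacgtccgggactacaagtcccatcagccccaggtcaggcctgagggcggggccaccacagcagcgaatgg
Fasn: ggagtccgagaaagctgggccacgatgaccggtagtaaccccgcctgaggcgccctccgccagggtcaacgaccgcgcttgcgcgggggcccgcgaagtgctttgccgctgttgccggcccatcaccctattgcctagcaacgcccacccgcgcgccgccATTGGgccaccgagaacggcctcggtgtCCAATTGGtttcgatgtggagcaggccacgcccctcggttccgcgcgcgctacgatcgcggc
Slc25a1: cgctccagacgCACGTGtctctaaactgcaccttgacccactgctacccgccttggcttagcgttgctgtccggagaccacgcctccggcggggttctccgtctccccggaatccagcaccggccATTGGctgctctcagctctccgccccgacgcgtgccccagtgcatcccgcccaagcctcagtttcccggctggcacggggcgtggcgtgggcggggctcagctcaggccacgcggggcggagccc
Mlxipl: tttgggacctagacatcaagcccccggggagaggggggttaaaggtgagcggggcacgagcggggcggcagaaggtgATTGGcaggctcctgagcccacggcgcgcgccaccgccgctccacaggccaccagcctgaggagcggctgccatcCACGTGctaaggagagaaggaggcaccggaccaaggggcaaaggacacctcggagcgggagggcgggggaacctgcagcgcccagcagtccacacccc

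The stretch of Fasn holds a pair of NF-Y boxes that overlap within CCAATTGG and a further one before it. The stretches of Slc25a1 and Mlxipl each hold 1 E-box and 1 NF-Y box, and those of Elovl6 and Acly hold neither. On both strands of the whole windows, the NF-Y box was present in 9 of 14 member windows (64.3%), from 8 genes, against 37.4% of all 32851 windows of the same length. The GC box GGGCGG was present in 7 of the 14, from 6 genes, against 35.7% of all windows. The E-box CACGTG was present in 2 of 14 (14.3%) against 7.15%. The sterol regulatory element core CACCCCAC was present in 0 of 14 against 2.87% of all windows, and a pair of looser E-boxes (CANNTG) with 5 bases between them in 0 of 14 against 0.767%. The motifs were counted one by one, and the GC box may lie next to or over others. Each match describes letters in a window, and absence says only that the letters are not in that window.

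Counts summed over the listed genes ran from 12115183 (CPX 6) to 14208853 (MPX 7) per library. Levels are given as CPM, the share of these listed counts scaled per 1e+06 after TMM, so they exceed CPM over a whole library. CPX 6 stood apart. The 18 listed adipocyte markers (of 19 in the list) summed to 11829 CPM in CPX 6, against 69364 to 131307 CPM in the other CPX libraries, 73904 to 84826 CPM in MPX and 45755 to 70526 CPM in EA. The 9 listed B cell markers (of 12) summed to 5076 CPM in CPX 6, 210 and 372 CPM in CPX 4 and CPX 8, 8.77 to 22.3 CPM in MPX and 794 to 2180 CPM in EA. No listed marker of either list was at 0 counts in any library. What part other cells in the samples have in the differences below was not tested, beyond the values relative to the markers given beside them. In a bulk sample, fewer cells of a type and less RNA per cell cannot be told apart. Although the tissue is labelled adipose, the protocol for RNA extraction names retinas, whose markers were not analysed here.

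**Figure D1:**
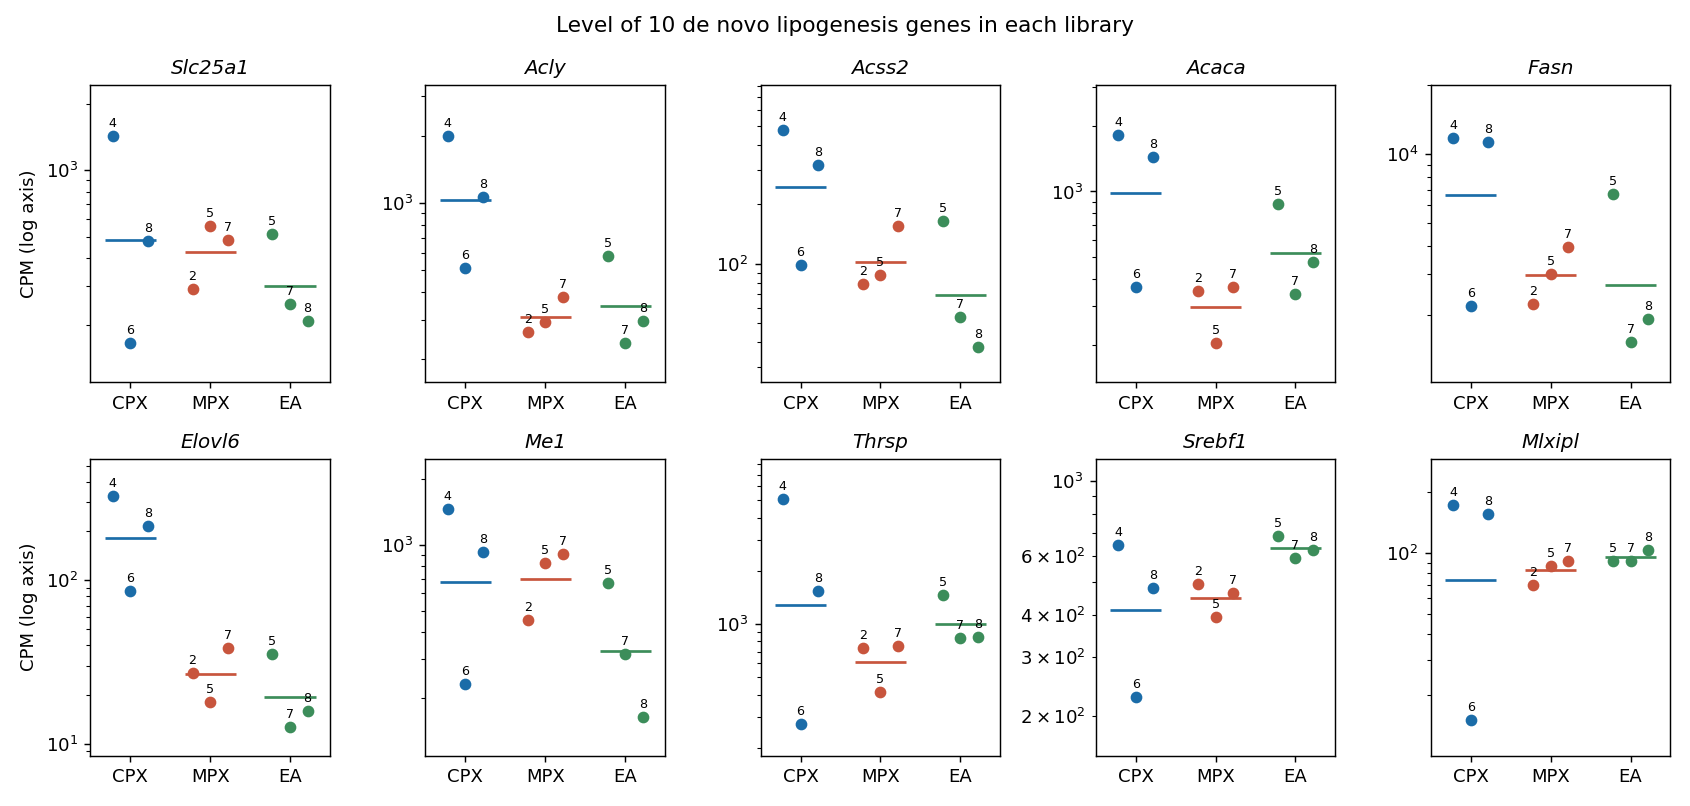
CPM of each gene (vertical log axis, a separate scale for each panel) in the 3 libraries of CPX, MPX and EA, with points numbered by library and a horizontal line at each group's geometric mean. For Elovl6 the CPX points, at 86.1 to 325 CPM, all lie above the MPX and EA points, while for Srebf1 the 9 points lie between 228 and 686 CPM.

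Elovl6, which lengthens the chain, showed the largest log2 differences from CPX among the members. The 9 genes of a list called elongation and desaturation, which also holds the carboxylase Acacb, had a median log2 difference of -0.11 in MPX against CPX. The median of all genes was -0.11 as well. Elovl6 was at 325, 86.1 and 214 CPM in CPX 4, 6 and 8, at 27.0, 18.1 and 38.8 CPM in MPX 2, 5 and 7, and at 35.6, 12.7 and 15.9 CPM in EA 5, 7 and 8. Every CPX library, CPX 6 included, was above every MPX and every EA library, while MPX and EA overlapped. The group means were 208 ± 120 CPM (SD, n = 3) in CPX, 27.9 ± 10.4 in MPX and 21.4 ± 12.4 in EA, so the CPX mean was 7.46 times that of MPX and 9.74 times that of EA. The levels of Elovl6 ran over a 25.6-fold range across the 9 libraries, the widest of the 10 genes. Elovl6 ranked 3580 of 3958 by total count, near the lower end of the table. It totalled 9328 counts, and the table stops at 8471. Most of these counts came from CPX (3434, 1122 and 2717 in CPX 4, 6 and 8), while each MPX and EA library had 190 to 548. Its place among the listed genes thus depended on its CPX level. Its ranks and shares beside the listed genes below are therefore no test. Its span overlaps 2 annotated genes, Gm35986 on the other strand and Gm43072 on the same strand. As no strand setting or counting rule is stated, reads of these genes could not be told apart from those of Elovl6.

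Among the enzymes that supply acetyl-CoA, Acly followed. It was at 1984, 514 and 1065 CPM in CPX 4, 6 and 8, at 266, 293 and 380.2 CPM in MPX 2, 5 and 7, and at 582, 238 and 297 CPM in EA 5, 7 and 8. The CPX libraries were all above the MPX libraries, and EA 5 lay above CPX 6. Acss2 was at 474, 98.5 and 315 CPM in CPX, at 78.9, 87.8 and 156 CPM in MPX and at 164, 53.6 and 37.8 CPM in EA, in the same library order. CPX 4 and CPX 8 were the highest, and CPX 6 lay among the MPX libraries. Acss2 overlaps 5 annotated genes, among them Acss2os, Gss and Ggt7 on the other strand, so its counts could include theirs. Slc25a1 was at 1432, 165 and 476 CPM in CPX, at 289, 561 and 484 CPM in MPX and at 517, 247 and 207 CPM in EA. All groups overlapped for this carrier, and only CPX 4 was above all MPX and EA libraries.

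Of the enzymes that make the chain, Acaca was at 1802, 368 and 1437 CPM in CPX 4, 6 and 8, at 353, 203 and 365 CPM in MPX 2, 5 and 7, and at 878, 340.5 and 479 CPM in EA 5, 7 and 8. The lowest CPX library was barely above the highest MPX library, and EA spanned the gap between those groups. Fasn was at 11822, 2172 and 11338 CPM in CPX, at 2235, 3018 and 3933 CPM in MPX and at 6710, 1526 and 1910 CPM in EA. CPX 4 and CPX 8 stood far above the rest, EA 5 came next, and CPX 6 lay below all of MPX.

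Me1, the NADPH-making malic enzyme, was at 1451, 231 and 926 CPM in CPX, at 451, 822 and 903 CPM in MPX and at 671, 316 and 163 CPM in EA. MPX 7 came close to CPX 8, and EA 7 and EA 8 lay below all MPX libraries. Thrsp was at 5061, 271 and 1548 CPM in CPX, at 736, 415 and 752 CPM in MPX and at 1456, 836 and 841 CPM in EA. Each EA library was above each MPX library, and the CPX libraries spread over an 18.7-fold range that took in both other groups.

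Of the regulators, Srebf1 was at 646, 228 and 480.1 CPM in CPX, at 492, 394 and 462 CPM in MPX and at 686, 589 and 622 CPM in EA. The EA libraries were all above the MPX libraries, and CPX took in the whole range below EA 5. Mlxipl was at 172, 15.1 and 156 CPM in CPX, at 70.0, 86.9 and 91.9 CPM in MPX and at 92.1, 91.7 and 104 CPM in EA. CPX 4 and CPX 8 were the highest and CPX 6 was the lowest. Across the 9 libraries Srebf1 ran over a 3.01-fold range, against at least 7.75-fold for each other member. Its SD on the log2 scale stood at percentile 56.7 of all listed genes, against percentiles from 89.5 (Slc25a1) to 98.5 (Elovl6) for the others. Srebf1 overlaps Rai1 on the other strand.

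Per kilobase of gene length, the order of group means in MPX was Thrsp at 290 ± 86.7 CPM per kb (SD, n = 3), Fasn at 279.7 ± 77.6, Slc25a1 at 205 ± 64.9, Me1 at 189 ± 62.7, Srebf1 at 79.8 ± 8.92, Acly at 59.3 ± 11.3, Acaca at 18 ± 5.29, Mlxipl at 15.0 ± 2.07, Acss2 at 10.6 ± 4.14 and Elovl6 at 4.34 ± 1.61. Thrsp, Fasn, Slc25a1 and Me1 lay within their spread of each other, as did Acaca, Mlxipl and Acss2. In EA, Thrsp led at 477 CPM per kb and Elovl6 was last at 3.33 CPM per kb. In CPX, Thrsp led at 1048 CPM per kb, and Elovl6, at 32.4 CPM per kb, came before Acss2 at 29.1 and Mlxipl at 20.7, although the last of these lay within the spread of the CPX libraries.

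The libraries of a group did not move alike. CPX 4 was the highest of the 9 libraries in 9 members (all but Srebf1), and CPX 6 was the lowest of CPX in 10 of 10. CPX 8 was above all MPX and EA libraries in 8 members, the exceptions being Slc25a1 and Srebf1. In EA, EA 5 was the highest in 9 members (all but Mlxipl) and was above all MPX libraries in 7. EA 7 and EA 8 were both below all MPX libraries in 5 members, Elovl6, Fasn, Acss2, Me1 and Slc25a1. The share of all genes with each of these orders was not counted, so the orders describe the libraries and are not read as particular to the members. The 10 genes together took 1.89%, 0.446% and 1.76% of the listed counts in CPX 4, 6 and 8, 0.506%, 0.593% and 0.753% in MPX 2, 5 and 7, and 1.23%, 0.464% and 0.512% in EA 5, 7 and 8.

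The first comparison was MPX against CPX. Elovl6 was lower in MPX by a log2 difference of -2.90 (SE 0.59), Acaca by -1.97 (SE 0.62) and Acly by -1.92 (SE 0.55), and these were the members whose groups did not overlap. Thrsp differed by -1.85 (SE 0.87), and Fasn and Acss2 each by -1.46 (SE 0.78 and 0.69). Slc25a1 (-0.64), Mlxipl (-0.46), Me1 (-0.26) and Srebf1 (-0.0059) differed by less than their SE. With edgeR's quasi-likelihood test and Benjamini-Hochberg adjustment over all 3958 genes, no member and no other gene passed an adjusted p of 0.05 (0% of the listed genes). The adjusted p of Elovl6 was 0.362, with an unadjusted edgeR p of 0.00107, the 10th smallest of all listed genes. That rank is no test, as Elovl6 entered the table through its CPX counts. At an unadjusted p under 0.05, 3 of 10 members (Elovl6, Acly and Acaca) were lower in MPX, against 8.21% of all genes, and 0 of 10 were higher, against 4.98%. The ranges did not overlap, with MPX lower, in 3 of 10 members against 7.71% of all genes, and with MPX higher in 0 of 10 against 8.46%. The smallest two-sided p of an exact permutation test of 3 libraries against 3 is 0.1.

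The log2 difference was negative in 10 of 10 members, with a median of -1.46, against a median of -0.11 over all genes. Scaling to column totals alone turned Srebf1 to 0.17. Without CPX 4 the members' median was -0.70, and Me1, Slc25a1 and Srebf1 turned positive, at 0.36, 0.50 and 0.37. Without CPX 6 the median was -1.90. The mean centred log2 level of the B cell markers was also used as a covariate. It does not overlap between MPX (-3.79 to -2.66) and CPX (-2.46, 4.83 and -1.55 in CPX 4, 6 and 8). That fit thus cannot fully tell the covariate from the group, and CPX 6 lies far from the rest. With it, edgeR called 54 genes (1.36%), among them 4 members: Elovl6 at -3.67 (adjusted p = 0.0243), Acly at -2.61 (adjusted p = 0.0312), Acaca at -2.81 (adjusted p = 0.0287) and Thrsp at -2.94 (adjusted p = 0.0287). The members' median in that fit was -2.42. Without CPX 8 edgeR called 168 genes, none of them a member. DESeq2 called 201 genes, among them Elovl6 (adjusted p = 3.17e-05), Acly (adjusted p = 0.0175) and Acaca (adjusted p = 0.0311).

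The second comparison was EA against CPX, which shares the CPX libraries with the first. Elovl6 differed by -3.28 (SE 0.60), with the smallest unadjusted edgeR p of all listed genes (0.000531) and an adjusted p of 0.997. Here too the rank is no test, as Elovl6 is listed through its CPX counts. Acss2 differed by -1.80 (SE 0.70) and Acly by -1.68 (SE 0.54). Fasn (-1.32), Me1 (-1.18), Thrsp (-1.14), Slc25a1 (-1.09) and Acaca (-1.09) had lower means in EA with SE from 0.61 to 0.85. Mlxipl was at -0.25 (SE 0.68) and Srebf1 at 0.49 (SE 0.37). None of the 3958 genes passed the adjusted threshold with edgeR (0%). At an unadjusted p under 0.05, 3 of 10 members (Elovl6, Acly and Acss2) were lower in EA, against 2.0% of all genes, and 0 of 10 were higher, against 0.960%. Ranges did not overlap, with EA lower, in Elovl6 alone (1 of 10, against 5.08% of all genes), and with EA higher in 0 of 10 (against 2.10%).

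The median difference of the members was -1.16, against -0.093 over all genes, with 9 negative and 1 positive. Mlxipl was at 0.053 when scaled to column totals alone, and Srebf1 was at -0.031 when scaled to the adipocyte markers. The members' median was -0.63 without CPX 4, where Thrsp (0.20), Slc25a1 (0.017) and Mlxipl (0.16) turned positive, and -1.73 without EA 5. The B cell marker covariate was at -2.46, 4.83 and -1.55 in CPX 4, 6 and 8, and at 2.24, 2.67 and 3.75 in EA 5, 7 and 8. Its fitted slope thus rests largely on CPX 6, and the values of that fit are no firmer than this library. With the covariate the members' median was 0.032, with 4 members negative and 6 positive, and edgeR called 362 genes (9.15%). Among these were 3 members, Elovl6 at -2.43 (adjusted p = 0.0215), Srebf1 at 1.10 (adjusted p = 0.0268) and Mlxipl at 1.62 (adjusted p = 0.0330), the last with its sign turned. DESeq2 called 5 genes, Elovl6 among them (adjusted p = 4.13e-06), and without CPX 6 edgeR called 12 genes, Elovl6 among them (adjusted p = 0.0338).

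**Figure D2:**
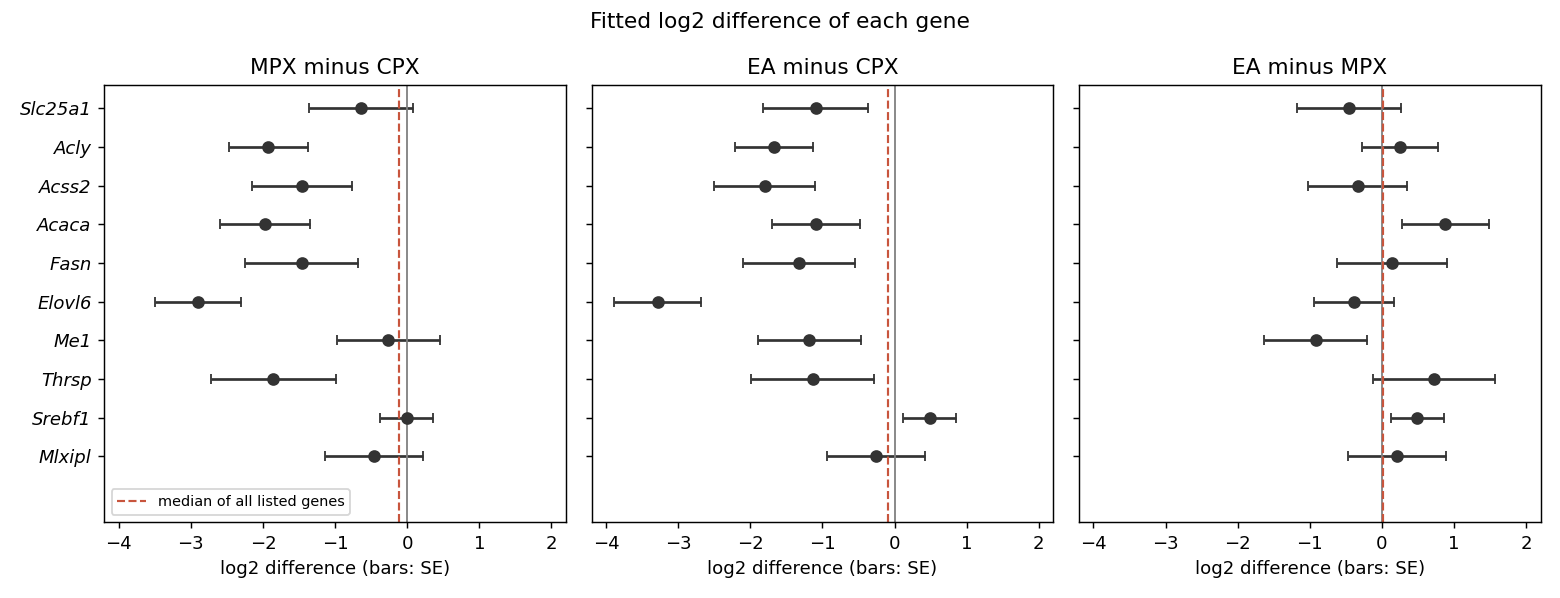
Fitted log2 difference of each gene (horizontal axis, bars are 1 SE) in MPX minus CPX, EA minus CPX and EA minus MPX, with the median of all listed genes as a dashed line. Elovl6 lies farthest from 0 in the first pair of panels, at -2.90 and -3.28, and in the third panel the genes fall on both sides of 0, from -0.92 to 0.88.

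The third comparison, EA against MPX, found members on both sides of 0. Acaca had a higher mean in EA (log2 difference 0.88, SE 0.61), as did Thrsp (0.72, SE 0.85) and Srebf1 (0.49, SE 0.37). Me1 had a lower mean in EA (-0.92, SE 0.72), as did Slc25a1 (-0.46, SE 0.72), Elovl6 (-0.38, SE 0.56) and Acss2 (-0.34, SE 0.68). Acly was at 0.25, Mlxipl at 0.21 and Fasn at 0.14. Acaca, Srebf1 and Me1 differed by more than their SE and the other members did not. The median was 0.18, with 6 positive and 4 negative, against 0.012 over all genes. No gene passed the adjusted threshold with edgeR (0%), and the members' adjusted p values were 0.775 or more. At an unadjusted p under 0.05, 0 of 10 members were lower, against 3.01% of all genes, and 0 of 10 were higher, against 2.10%. Ranges did not overlap in Thrsp and Srebf1, with EA higher (2 of 10, against 21.5% of all genes), and in 0 of 10 with EA lower (against 19.0%), so the share of members is near or below that of the table. The members' median was -0.53 without EA 5, with Acly at -0.23 and Fasn at -0.83, and it was -0.00022 without MPX 2, 0.37 without EA 7 and 0.30 without MPX 7. With the B cell markers as a covariate, whose levels in EA and MPX do not overlap, 10 of 10 members were positive, with a median of 1.75. The covariate's slope rests largely on CPX 6, a library of neither group. That fit called 601 genes (15.2%) with edgeR, among them 4 members: Mlxipl at 3.06 (adjusted p = 0.0125), Thrsp at 3.90 (adjusted p = 0.0130), Srebf1 at 1.63 (adjusted p = 0.0180) and Acaca at 2.83 (adjusted p = 0.0226). DESeq2 called 49 genes and edgeR without CPX 6 called 23, in both cases no member. Scaled to the adipocyte markers, Elovl6 (0.14), Acss2 (0.11) and Slc25a1 (0.052) were also positive.

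**Figure D3:**
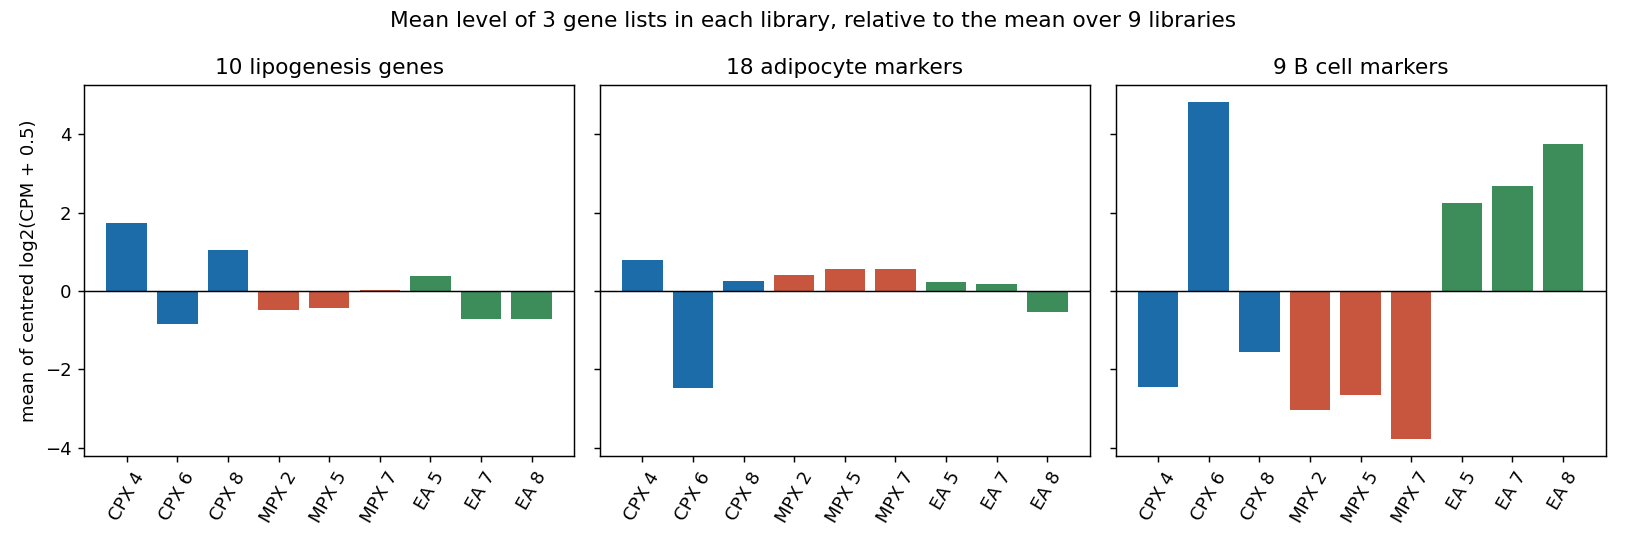
Mean over each gene list of log2(CPM + 0.5), centred for each gene on its mean over the 9 libraries (vertical axis), in each library for the 10 lipogenesis genes, the 18 listed adipocyte markers and the 9 listed B cell markers. CPX 6 is at -2.47 for the adipocyte markers and at -0.84 for the lipogenesis genes, while it is at 4.83 for the B cell markers.

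The members were also read against the adipocyte markers. The level of a gene relative to the markers is its centred log2 level minus the mean centred log2 level of the 18 markers. The markers' low level in CPX 6 raises every gene of that library alike: 95.7% of all genes were highest in CPX 6 among the CPX libraries on this scale, against 41.5% in CPM. Of the members, 8 of 10 (all but Thrsp and Mlxipl) were highest there on this scale and 0 of 10 in CPM. On this scale Elovl6 was at 2.04, 3.40 and 1.99 in CPX 4, 6 and 8, at -1.17, -1.89 and -0.80 in MPX 2, 5 and 7, and at -0.59, -2.01 and -0.98 in EA 5, 7 and 8. Fasn was at 0.85, 1.69 and 1.34 in CPX, at -1.17, -0.88 and -0.50 in MPX, and at 0.60, -1.48 and -0.45 in EA. Srebf1 was at -0.40, 1.38 and -0.28 in CPX, at -0.41, -0.88 and -0.65 in MPX, and at 0.25, 0.09 and 0.88 in EA. CPX was above MPX without overlap for Elovl6, Fasn and Srebf1, by little for the last.

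On that relative scale, 10 of 10 members were lower in MPX than in CPX with ranges that did not overlap, against 16.3% of all listed genes. In EA against CPX, 7 of 10 were lower (all but Slc25a1, Mlxipl and Srebf1), against 2.83% of all genes. In EA against MPX, 4 of 10 were higher (Acaca, Thrsp, Mlxipl and Srebf1) and none was lower, while 55.0% of all genes were higher. In fits scaled to these markers the median of all genes shifted by -1.65 (MPX against CPX), -1.10 (EA against CPX) and 0.59 (EA against MPX), so that a gene at the median of the table also appeared changed. The members' medians in those fits were -2.13, -1.36 and 0.71, beside -1.76, -1.19 and 0.61 for all genes. In an added reading without CPX 6, chosen after the data were seen, 8 of 10 members were lower in CPM in MPX (all genes 14.9%) and the same number in EA (all genes 17.0%), the exceptions being Slc25a1 and Srebf1. Relative to the adipocyte markers it gave 10 of 10 (16.4%) and 7 of 10 (2.85%).

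Ratios between members within a library do not depend on library scaling. Of the 45 ratios, 26 had ranges that did not overlap between MPX and CPX, 19 between EA and CPX and 13 between EA and MPX (57.8%, 42.2% and 28.9%). Over all 7819035 pairs of the 3955 listed genes with a count in every library, the shares were 17.0%, 6.59% and 39.8%, so the members' share in EA against MPX was below that of the table. The 45 ratios share genes and are not independent, so the members' shares are no test. All 9 ratios that hold Elovl6, which share its 1 value per library, were apart between MPX and CPX and between EA and CPX. Between EA and MPX, 3 of 9 were apart. Elovl6, listed through its CPX counts, thus gave 9 of the 26, 9 of the 19 and 3 of the 13. Over the ratios of Elovl6 to each of the other 3954 listed genes with a count in every library, the shares apart were 83.2%, 90.3% and 3.59% in the same order of comparisons. Elovl6 relative to Acaca, shown because it came apart in all 3 comparisons and so picked after its values were seen, had log2 ratios of -2.47, -2.10 and -2.75 in CPX 4, 6 and 8, of -3.71, -3.49 and -3.24 in MPX 2, 5 and 7, and of -4.63, -4.74 and -4.91 in EA 5, 7 and 8. The ratio was highest in CPX, intermediate in MPX and lowest in EA, with no overlap. Elovl6 relative to Acly and to Thrsp gave the same order without overlap, and relative to Fasn, MPX and EA overlapped.

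**Figure D4:**
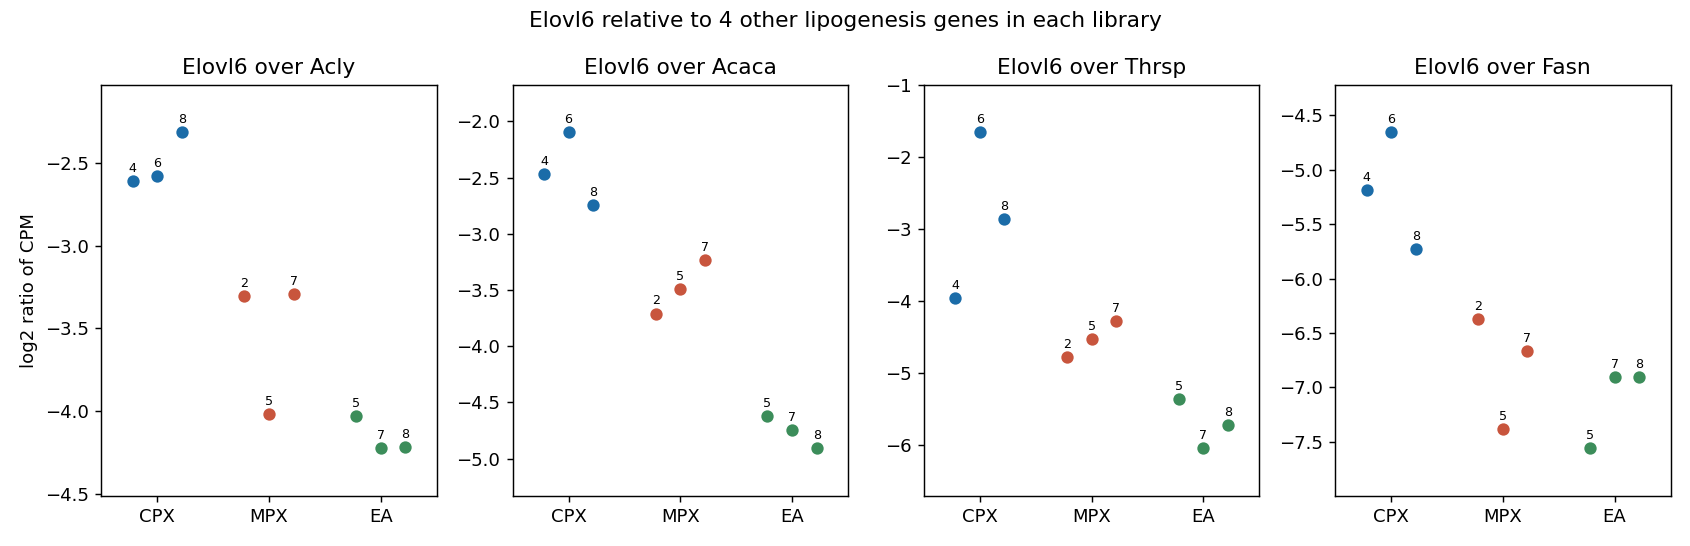
Log2 ratio of the CPM of Elovl6 to that of Acly, Acaca, Thrsp and Fasn (vertical axis, a separate scale for each panel) in each library of CPX, MPX and EA. Relative to Acaca, CPX lies between -2.75 and -2.10, MPX between -3.71 and -3.24 and EA between -4.91 and -4.63.

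Other genes of the pathway were read from lists of named genes, and none of them passed the adjusted threshold with edgeR in any comparison. The list called elongation and desaturation (9 of 21 listed) also held Acacb, a carboxylase that does neither. In this list 1 gene, Acacb, was higher and 1 was lower at an unadjusted p under 0.05 in EA against MPX, with a median of -0.43. Acacb, the acetyl-CoA carboxylase bound to mitochondria, was at 497, 114 and 383 CPM in CPX 4, 6 and 8, at 181, 187 and 111 CPM in MPX 2, 5 and 7, and at 711, 482 and 443 CPM in EA 5, 7 and 8. Its EA libraries were all above its MPX libraries, and its difference was 1.77 on the log2 scale (SE 0.52, edgeR adjusted p = 0.775). The lower gene was Scd2, a fatty acid desaturase, at -1.20 (SE 0.43, edgeR adjusted p = 0.775), with EA and MPX libraries that overlapped. Against CPX, Scd2 was lower in EA without overlap, at -1.29 (SE 0.43, edgeR adjusted p = 0.997). In MPX against CPX, 1 of these 9 (Fads1, a fatty acid desaturase) was lower at an unadjusted p under 0.05, at -1.36 (SE 0.49, edgeR adjusted p = 0.362).

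Of the 6 listed genes of NADPH supply (of 9), G6pdx and Pgd, which make NADPH in the pentose phosphate pathway, were lower in EA than in MPX at an unadjusted p under 0.05. G6pdx was at 251, 94.6 and 244 CPM in CPX, at 286, 393 and 350.3 CPM in MPX and at 190.4, 227 and 133 CPM in EA, and EA minus MPX was -0.90 on the log2 scale (SE 0.39, edgeR adjusted p = 0.775). Pgd differed by -0.99 (SE 0.43, edgeR adjusted p = 0.775). In MPX against CPX the G6pdx libraries of MPX were all above those of CPX, a direction opposite to that of Elovl6 and Acly. In the substrate entry list (12 of 13), the lipogenic regulators (17 of 27) and the fatty acid esterification list (10 of 12), no gene passed an unadjusted p of 0.05 in any of the 3 comparisons. The medians in MPX against CPX were -0.11 for elongation and desaturation, -0.096 for NADPH supply, -0.038 for substrate entry, 0.035 for the regulators and 0.087 for esterification, beside -1.46 for the 10 members and -0.11 for all genes. Relative to the adipocyte markers, a scale that raises every gene of CPX 6, MPX was below CPX without overlap in 16.3% of all genes. It was so in 7 of 9 genes of the elongation and desaturation list, Acacb among them, 7 of 12 of substrate entry and 2 of 6 of NADPH supply. The 2 of 17 regulators (11.8%) and 2 of 10 of esterification (20%) were near the share of all genes.

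Likeness of pattern over the 9 libraries was read as the root mean square difference of centred log2 CPM. The genes outside the 10 members most like Elovl6 were Gm10925 (0.78), mt-Co3 (0.86), Tkt (0.98), Gm28661 (0.99), mt-Rnr1 (1.01) and mt-Atp6 (1.02), against a median of 1.61 over all genes outside the members. The members Acly (0.70) and Acss2 (0.75) were closer to Elovl6 than any of these, and Fasn (0.92) and Acaca (0.96) were closer than Tkt. The genes outside the members most like the mean of the 10 members were Tkt (0.19), Gbe1 (0.25), mt-Nd4 (0.28), Pygl (0.28), mt-Nd2 (0.33) and Pdhb (0.34), against a median of 0.93. The genes named mt-, found near both Elovl6 and the members' mean, are encoded by mitochondrial DNA, and Gm10925 and Gm28661 are predicted genes. Of the others, Tkt encodes transketolase of the pentose phosphate pathway, Gbe1 and Pygl act on glycogen, and Pdhb is a subunit of pyruvate dehydrogenase. Why these genes share the pattern was not tested. Tkt was at 3223, 429 and 1222 CPM in CPX, at 566, 563 and 683 CPM in MPX and at 976, 435 and 394 CPM in EA, so CPX 4 was the highest, followed by CPX 8 and EA 5, as for Fasn.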

How the data were processed

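From total RNA of fat, 9 libraries in 3 groups were prepared (Illumina TruSeq kit, per the labels' protocols). HISAT2 2.0.5 and mm10 are named for alignment in the submitters' processing notes. How reads were counted, with which annotation and strand setting, is not given in the sources used here. Per the file headers, the authors deposited raw counts by gene, beside names, positions and lengths of genes. The table used here holds 3958 genes sorted by total, from 3653827 down to 8471 counts, with an incomplete last row; genes under that level were not analysed here. For 11 genes the name was restored from the ID. Columns were assigned to libraries by their titles.

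Tests were run in edgeR 4.0.16 (R 4.3.3) on all 9 libraries in 1 fit, with TMM factors (0.753 in CPX 4), filterByExpr (which removed no gene), robust quasi-likelihood F tests and Benjamini-Hochberg adjustment over all genes. The common dispersion was 0.161. The SE is the absolute log2 difference over the square root of the F statistic. Alternatives used DESeq2 1.42.0, limma 3.58.1 (voom), other scalings and other sets of libraries. Scripts were checked on simulated counts. Between replicates the chi-square per degree of freedom was 71.5 or more.

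The 10 members, the gene lists and the tests were chosen with earlier results of these data known. Other genes are named as the smallest p values of a list (at most 5 a comparison), as the 6 genes outside the members most like Elovl6 or the mean of the members, or as markers. Mesothelial, epithelial, liver, muscle, male reproductive tract and retina markers were not analysed here.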

Additional observations from a re-analysis of the deposited data

How the results depend on the processing

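With edgeR, 0 genes were called in each comparison. At an unadjusted p under 0.05, 119 genes were lower and 83 higher in EA against MPX, 325 and 197 in MPX against CPX, and 79 and 38 in EA against CPX. In the same order DESeq2 called 49, 201 and 5, and voom 0 in each. A B cell marker covariate, whose values do not overlap between EA and MPX or between MPX and CPX, gave 601, 54 and 362 (4, 4 and 3 of them members). The slope of that covariate rests largely on CPX 6. A fit of only the 2 groups gave 84 in EA against MPX. Leaving out 1 library gave 0 to 23, 0 to 168 and 0 to 12, the highest without CPX 6, CPX 8 and CPX 6. With the replicate number as a block (EA and MPX share 5 and 7), EA against MPX had 6 calls, no member, and a members' median of -0.033. Correlations of same-numbered libraries' deviations were 0.022 and 0.13 over only 2 pairs, too few to say whether the numbers pair the libraries, and no label says that they do. The members' median in EA against MPX was 0.71 scaled to adipocyte markers, 1.75 with the covariate and -0.53 to 0.37 with 1 library left out. In EA against CPX it was 0.032 with the covariate. Leaving out both CPX 4 and CPX 6, chosen after seeing the data, gave medians of -1.40 and -1.31 against CPX. Column totals alone shifted the median of all genes by 0.099, 0.11 and 0.19. No filter removed a gene, so filters say nothing about stability.

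In EA against MPX the members changed sign as follows. Scaled to adipocyte markers, Elovl6 was 0.14, Acss2 0.11 and Slc25a1 0.052. With the covariate, Elovl6 was 1.24, Acss2 1.65, Me1 1.25 and Slc25a1 1.76. Fasn was -0.14 in voom and -0.11 with the block. With 1 library left out, Acly ran from -0.23 to 0.49, Fasn from -0.83 to 0.49 and Acss2 from -1.23 to 0.016. In MPX against CPX, Srebf1 was 0.17 by column totals and 0.080 in voom, and Mlxipl 0.48 in voom. With 1 library left out, Me1 ran from -0.71 to 0.36, Slc25a1 from -1.10 to 0.50 and Srebf1 from -0.33 to 0.37. In EA against CPX, the covariate gave Acaca 0.016, Me1 0.049, Thrsp 0.96, Slc25a1 0.27 and Mlxipl 1.62. Mlxipl was 0.053 by column totals and 0.70 in voom, and Srebf1 -0.031 scaled to adipocyte markers. With 1 library left out, Thrsp ran from -1.68 to 0.20, Slc25a1 from -1.61 to 0.017 and Mlxipl from -0.78 to 0.16. The cause of these changes was not tested. Elovl6 was negative against CPX in every alternative run, from -2.40 to -3.85 in MPX and from -2.43 to -3.86 in EA.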

Other observations

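Of the other marker lists, the 11 macrophage markers were all higher in EA than in MPX by mean, with a median log2 difference of 0.65 and 2 at an unadjusted p under 0.05 with edgeR. Their summed level was 4065, 2965 and 6957 CPM in EA 5, 7 and 8, and 4049, 1396 and 1916 CPM in MPX 2, 5 and 7, so the groups overlapped. The 8 endothelial markers had lower means in EA than in MPX in 8 of 8, with a median of -0.33, and the 8 fibroblast or progenitor markers were on both sides of 0, with a median of -0.15. Of the 8 genes of the brown or beige adipocyte list only Pdk4 was listed, and it differed by 0.24. That 1 gene alone does not describe such cells. The 4 listed genes of cholesterol synthesis and uptake (of 20) had a median of -0.46 but fell on both sides of 0. Hmgcs1 (-1.79, SE 0.42) and Sc5d (-1.15, SE 0.52) were lower in EA without overlap. Acat2 (0.45, SE 0.49) and Fdft1 (0.24, SE 0.61) had higher means, with groups that overlapped. The 2 listed ChREBP targets outside the pathway had a median of -0.099. None of these genes passed the adjusted threshold with edgeR.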
